A study of Mus musculus with 4 samples.

Results

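Transcripts of 9 genes whose products restrain mTORC1 or its output were followed in gastrocnemius muscle. The mice were lean or obese, with and without the glucocorticoid receptor (GR) in their muscle fibres. The 9 genes were *Ddit4*, *Ddit4l*, *Sesn1*, *Sesn2*, *Sesn3*, *Deptor*, *Eif4ebp1*, *Tsc1* and *Tsc2*, taken by gene name out of 22252 gene names in the deposited count tables. All 9 were above 0 in every library.

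RNA-seq was done on 4 libraries, 1 for each of lean GRf/f, lean GRmKO, *ob/ob* GRf/f and *ob/ob* GRmKO mice. Each library was made from the pooled RNA of 3 male mice aged 7 weeks, so the spread between mice was not measured and no test between groups could be made. All mice were on the C57BL/6J background and carried floxed alleles of *Nr3c1*, the gene of GR. The GRmKO mice also carried Cre recombinase under the *Acta1* promoter, which is active in myofibres and removes exon 3 of *Nr3c1*, so that other cells of the muscle kept an intact receptor gene. The GRf/f mice, lean or obese, carried the floxed alleles without Cre. The *ob/ob* mice lack leptin, which makes them obese. Values are CPM, the count of a gene scaled to the library total, with 95% Wilson intervals. Differences are log2 ratios of CPM with exact 95% intervals. Where an obesity difference is subtracted from another, the 95% interval is a normal approximation. All these intervals cover counting error only, since 1 library stands for each group. A gene is called higher or lower only by the size of its fold change, at 2-fold or at 1.5-fold. Where a smaller difference is given as higher or lower, the words describe the values of the libraries and are not a call.

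The mechanistic target of rapamycin complex 1 (mTORC1) is a protein kinase complex on the lysosome that drives protein synthesis and cell growth when amino acids, growth factors and energy are plentiful. It is switched on by the small GTPase *Rheb*, which the TSC complex of tuberin (*Tsc2*) and hamartin (*Tsc1*) turns off. *Ddit4* (also known as REDD1) and its paralog *Ddit4l* (REDD2) act through the TSC complex. The sestrins as a family signal amino acid shortage and stress to mTORC1, and *Deptor* binds the kinase itself. The translation repressor encoded by *Eif4ebp1* holds the cap-binding protein eIF4E until mTORC1 phosphorylates it. In skeletal muscle *Ddit4* is a known target of GR and is linked to the lower protein synthesis that glucocorticoids cause, and many of these proteins are controlled by phosphorylation or stability, which RNA levels do not show.

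RefSeq promoter windows (GRCm38) of 250 bases before the transcription start were matched for 7 of the 9 genes. The sequences of *Ddit4*, *Ddit4l* and *Sesn3* are shown because their levels were ordered differently across the 4 libraries. *Ddit4* lies at chr10:59949669-59951834 on the minus strand, and the bases shown, chr10:59951835-59952020, end just before its annotated first exon. *Ddit4l* lies at chr3:137621612-137628333 on the plus strand, and chr3:137623422-137623671 precedes the first exon of the listed transcript. *Sesn3* lies at chr9:14275067-14333101 on the plus strand, and chr9:14276051-14276300 likewise precedes the first exon of its listed transcript. The last 2 windows are inside the annotated span of their own gene and outside all its exons. Capitals mark matches to the motifs searched on both strands, each read 5′ to 3′ on the strand of the gene.
Ddit4: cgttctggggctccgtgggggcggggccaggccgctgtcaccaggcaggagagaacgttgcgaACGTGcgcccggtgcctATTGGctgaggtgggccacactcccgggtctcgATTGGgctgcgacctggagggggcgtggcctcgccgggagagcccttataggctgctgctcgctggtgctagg
Ddit4l: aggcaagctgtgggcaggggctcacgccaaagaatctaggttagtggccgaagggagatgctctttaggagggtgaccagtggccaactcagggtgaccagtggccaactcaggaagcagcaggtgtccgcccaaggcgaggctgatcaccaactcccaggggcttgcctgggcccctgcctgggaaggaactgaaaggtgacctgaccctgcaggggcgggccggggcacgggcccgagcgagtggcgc
Sesn3: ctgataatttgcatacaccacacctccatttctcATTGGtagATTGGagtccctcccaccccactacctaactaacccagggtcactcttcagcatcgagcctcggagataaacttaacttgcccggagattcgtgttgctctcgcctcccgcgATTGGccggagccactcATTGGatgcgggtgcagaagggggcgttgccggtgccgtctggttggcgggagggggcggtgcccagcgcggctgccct
The capitals in *Ddit4* are a hypoxia response core, ACGTG, at 187 to 183 bases before the RefSeq start and CCAAT boxes on the opposite strand, written ATTGG, at 170 to 166 and at 137 to 133. *Ddit4l* held none of the motifs searched, and its window was 65.2% G and C against 69.9% in *Ddit4*. *Sesn3* held 4 inverted CCAAT boxes, at 216 to 212, 208 to 204, 96 to 92 and 79 to 75 bases before its start. Among 32851 RefSeq windows of the same length, 33.8% held a CCAAT box and 16.6% held the hypoxia core. A GR hexamer, AGAACA, was in 16.1% of windows and in none of the windows of the 7 genes. The full GR site searched, AGAACA, then any 3 bases, then TGTTCT, was in 0.00913% of windows and in none of theirs. The E-box CACGTG, in 6.02% of windows, the ATF4 site TGATGNAA, in 3.45%, the cAMP response element TGACGTCA, in 1.55%, the FOXO site GTAAACA, in 3.17%, and the TATA box TATAAA, in 12.4%, were also in no window of the 7 genes. The hypoxia core is part of the E-box searched, so a window with the E-box counts for both. A missing match says only that these letters are not in these windows.

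The library totals were close, from 19897754 to 20959781 estimated counts, and 3 counts, the most that a count of 0 allows, corresponded to 0.143 to 0.151 CPM. *Nr3c1* was at 125 CPM in lean GRf/f, 67.0 in lean GRmKO, 102 in *ob/ob* GRf/f and 39.1 in *ob/ob* GRmKO, lower in GRmKO in both backgrounds. *Fkbp5*, a classic GR target, was at 88.8, 22.8, 106 and 26.1 CPM in the same order. The muscle origin of the RNA was plain, since 13 skeletal muscle genes summed to 120502 to 143404 CPM. Genes of other cell types were present at lower sums, and none of the 8 adipocyte, 8 erythroid, 8 macrophage, 8 endothelial or 7 fibroblast genes listed was at 0 in any library. The median of 14206 genes with counts in every library moved by −0.11 (log2) in obesity among GRf/f mice and by −0.21 among GRmKO mice, against 0.05 and −0.04 between genotypes in lean and *ob/ob* mice, so that differences are also given relative to this median gene. The study's methods name a gene-level summary of transcripts, yet each row of the tables carries the identifier of a single transcript, and whether a row holds the sum or the listed transcript alone could not be settled. The methods also turn transcript identifiers into gene names and keep only the largest entry of a repeated name. Among genes with a mean of 100 to 300 counts, 0 of 892 with 1 coding transcript were at 0 in any library. This compares with 20 of 1788 genes with 2 to 4 coding transcripts and 24 of 696 with 5 or more. *Trp53*, with 4 coding transcripts, was listed at 0 in lean GRf/f and *ob/ob* GRmKO. It was at 26.3 CPM in lean GRmKO and 16.5 in *ob/ob* GRf/f, so not every row can be assumed to be a sum. *Ddit4*, *Sesn2* and *Eif4ebp1* have 1 coding transcript, *Ddit4l* and *Sesn1* have 2, *Sesn3* and *Deptor* 3, *Tsc1* 4 and *Tsc2* 8. For the genes with more than 1, a shift between transcripts and a change of the gene cannot be told apart. No exon of the 9 listed transcripts overlapped an exon of another coding gene.

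*Ddit4* had its highest level in lean GRf/f muscle, and it was low whenever the mice were obese, lacked GR in muscle fibres, or both. It was at 93.1 CPM (89.0 to 97.3) in lean GRf/f, 37.1 (34.5 to 39.9) in lean GRmKO, 26.0 (23.9 to 28.3) in *ob/ob* GRf/f and 23.9 (21.9 to 26.1) in *ob/ob* GRmKO. The first 3 levels were separate beyond their counting intervals, and those of the 2 obese libraries overlapped. Among GRf/f mice, the obese library had 3.58-fold less *Ddit4*, a log2 difference of −1.84 (−1.98 to −1.70), or −1.73 relative to the median gene. In lean mice it was 2.51-fold lower in GRmKO than in GRf/f muscle, at −1.33 (−1.45 to −1.20). Among GRmKO mice the obese library was lower by a smaller margin, −0.64 (−0.80 to −0.47), or −0.43 relative to the median gene. Among *ob/ob* mice the genotypes were nearly level, at −0.12 (−0.30 to 0.05), with an interval that spanned 0. The obesity difference in GRf/f minus that in GRmKO muscle was −1.20 (−1.42 to −0.99) on the log2 scale, an interval for counting error only.

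*Ddit4l*, which encodes the paralog of the *Ddit4* protein and is abundant in skeletal muscle, was ordered in another way. It was at 211 CPM (205 to 217) in lean GRf/f, 370 (361 to 378) in lean GRmKO, 246 (239 to 253) in *ob/ob* GRf/f and 475 (466 to 485) in *ob/ob* GRmKO. Both GRmKO libraries were above both GRf/f libraries, and no interval overlapped another. *Ddit4l* was 1.75-fold higher in GRmKO among lean mice, at 0.81 (0.76 to 0.86), and 1.93-fold higher among *ob/ob* mice, at 0.95 (0.902 to 0.999). Obesity went with smaller differences, of 0.22 (0.16 to 0.28) in GRf/f and 0.36 (0.32 to 0.41) in GRmKO muscle. The difference between these obesity values was −0.14 (−0.21 to −0.07). Relative to the median gene the obesity values were larger, at 0.33 in GRf/f and 0.57 in GRmKO.

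**Figure D1:**
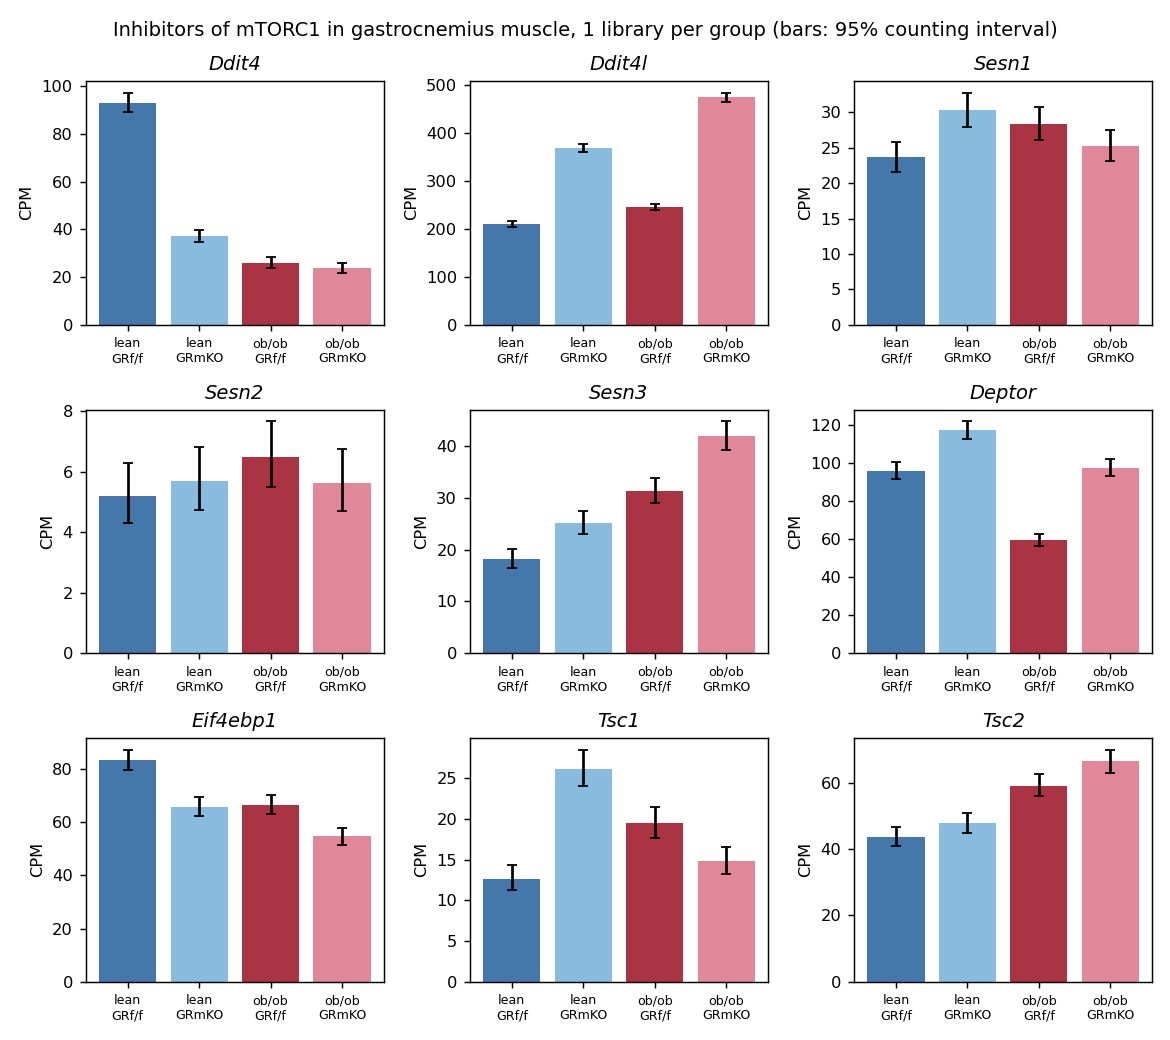
Level of each gene in CPM (y axis, from 0, a different range in each panel) in the 4 libraries (x axis), with bars for the 95% counting interval and no error between mice. *Ddit4* stands at 93.1 CPM in lean GRf/f and below 40 in the other 3 libraries, whereas *Ddit4l* is highest in the 2 GRmKO libraries.

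The sestrins bind the GATOR2 complex and lower mTORC1 activity. The 3 genes differed from each other across the libraries. *Sesn3* was at 18.2 CPM (16.4 to 20.1) in lean GRf/f, 25.1 (23.0 to 27.4) in lean GRmKO, 31.3 (29.0 to 33.8) in *ob/ob* GRf/f and 42.0 (39.3 to 44.8) in *ob/ob* GRmKO. All 4 levels were separate beyond counting error. *Sesn3* was 1.72-fold higher in obesity in GRf/f muscle, at 0.79 (0.60 to 0.97), and 1.67-fold higher in GRmKO muscle, at 0.74 (0.58 to 0.90). The difference between these values was 0.04, with an interval of −0.20 to 0.28. Relative to the median gene the obesity values were 0.90 in GRf/f and 0.95 in GRmKO. GRmKO muscle also had more *Sesn3* than GRf/f muscle, by 0.46 (0.27 to 0.66) in lean and 0.42 (0.28 to 0.57) in *ob/ob* mice.

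*Sesn1*, a known p53 target, stayed within a narrow range. It was at 23.6 CPM (21.6 to 25.8) in lean GRf/f, 30.3 (27.9 to 32.8) in lean GRmKO, 28.4 (26.2 to 30.7) in *ob/ob* GRf/f and 25.2 (23.1 to 27.4) in *ob/ob* GRmKO. Neighbouring levels in this order of size overlapped in every case, from lean GRf/f up through *ob/ob* GRmKO and *ob/ob* GRf/f to lean GRmKO. The obesity difference was 0.26 (0.09 to 0.44) in GRf/f and −0.26 (−0.43 to −0.09) in GRmKO muscle, although the second value was −0.06 relative to the median gene. The genotype difference was 0.36 (0.18 to 0.53) in lean mice and −0.17 (−0.34 to 0.00) in *ob/ob* mice. The obesity difference in GRf/f minus that in GRmKO muscle was 0.53 (0.29 to 0.77).

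*Sesn2*, a stress-inducible sestrin and known ATF4 target, was the least abundant of the 9 genes, at 5.21, 5.69, 6.48 and 5.62 CPM in lean GRf/f, lean GRmKO, *ob/ob* GRf/f and *ob/ob* GRmKO muscle. Its 108 to 136 counts per library gave wide intervals, from 4.31 to 6.28 CPM in lean GRf/f and from 5.49 to 7.67 in *ob/ob* GRf/f, and all 4 overlapped. The counting interval of every *Sesn2* difference spanned 0. The values were 0.31 (−0.06 to 0.70) for obesity in GRf/f and −0.02 (−0.40 to 0.37) for obesity in GRmKO muscle. For genotype they were 0.12 (−0.27 to 0.52) in lean and −0.21 (−0.57 to 0.16) in *ob/ob* mice.

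*Deptor*, which binds mTOR and inhibits it directly, was lowest in *ob/ob* GRf/f muscle. It was at 95.9 CPM (91.8 to 100) in lean GRf/f, 117 (112 to 122) in lean GRmKO, 59.5 (56.3 to 62.9) in *ob/ob* GRf/f and 97.5 (93.3 to 102) in *ob/ob* GRmKO. The levels of lean GRf/f and *ob/ob* GRmKO overlapped, and those of the other 2 libraries stood apart above and below them. *Deptor* was 1.61-fold lower in obesity in GRf/f muscle, at −0.69 (−0.79 to −0.59), and differed by −0.26 (−0.35 to −0.18) in GRmKO muscle, or −0.06 relative to the median gene. The genotype difference was 0.29 (0.20 to 0.37) in lean mice and 0.71 (0.61 to 0.81) in *ob/ob* mice, where *Deptor* was 1.64-fold higher in GRmKO. The obesity difference in GRf/f minus that in GRmKO muscle was −0.42 (−0.56 to −0.29).

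*Tsc2* is the GTPase-activating subunit of the TSC complex and *Tsc1* the subunit that stabilizes it, and the levels of the partners were not ordered alike. *Tsc2* was at 43.6 CPM (40.9 to 46.5) in lean GRf/f, 47.7 (44.8 to 50.9) in lean GRmKO, 59.1 (55.9 to 62.4) in *ob/ob* GRf/f and 66.3 (63.0 to 69.9) in *ob/ob* GRmKO. The 2 lean levels overlapped, and both obese levels were above them. Obesity went with 0.44 (0.31 to 0.56) in GRf/f and 0.47 (0.35 to 0.60) in GRmKO muscle, or 0.55 and 0.68 relative to the median gene. The genotypes differed by 0.13 (−0.00 to 0.26) in lean and 0.17 (0.06 to 0.28) in *ob/ob* mice.

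*Tsc1* was at 12.7 CPM (11.2 to 14.3) in lean GRf/f, 26.2 (24.0 to 28.5) in lean GRmKO, 19.5 (17.7 to 21.4) in *ob/ob* GRf/f and 14.8 (13.2 to 16.5) in *ob/ob* GRmKO. The lowest pair, lean GRf/f and *ob/ob* GRmKO, overlapped, and the other 2 levels were separate. The sign of each difference turned with the other factor. In obesity *Tsc1* was 1.54-fold higher in GRf/f, at 0.62 (0.39 to 0.85), and 1.77-fold lower in GRmKO muscle, at −0.83 (−1.03 to −0.62). Between genotypes it was 2.07-fold higher in lean GRmKO, at 1.05 (0.83 to 1.27), or 0.997 under another scaling, and 1.32-fold lower in *ob/ob* GRmKO, at −0.40 (−0.61 to −0.18). The obesity difference in GRf/f minus that in GRmKO muscle was 1.45 (1.15 to 1.75), an interval for counting error only. Relative to the median gene the obesity values were 0.74 and −0.62. *Tsc1* has 4 coding transcripts and 263 to 521 counts per library, and the part of transcript assignment in these values was not tested.

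*Eif4ebp1*, which codes for the repressor of cap-dependent translation, had its highest level in lean GRf/f and its lowest in *ob/ob* GRmKO. It was at 83.3 CPM (79.5 to 87.3) in lean GRf/f, 65.6 (62.2 to 69.3) in lean GRmKO, 66.5 (63.1 to 70.0) in *ob/ob* GRf/f and 54.7 (51.6 to 57.9) in *ob/ob* GRmKO. The middle 2 levels overlapped. All 4 differences were of like size, with −0.33 (−0.43 to −0.22) and −0.26 (−0.38 to −0.15) for obesity in GRf/f and GRmKO, and −0.34 (−0.45 to −0.24) and −0.28 (−0.40 to −0.17) for genotype in lean and *ob/ob* mice. Relative to the median gene the obesity values were −0.21 and −0.06.

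**Figure D2:**
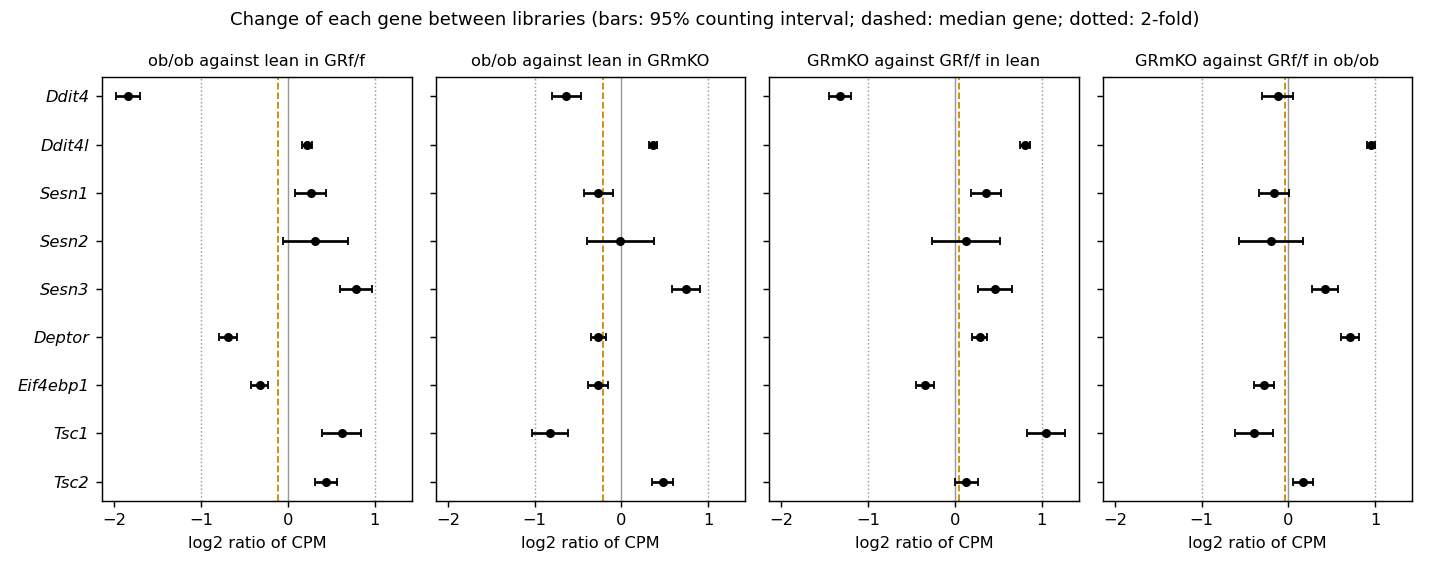
Log2 ratio of CPM (x axis) of the 9 genes (y axis) in the 4 comparisons, with 95% counting intervals, the median of all genes (dashed) and the 2-fold limits (dotted). Only *Ddit4*, in obesity among GRf/f mice and in GRmKO among lean mice, and *Tsc1*, in GRmKO among lean mice, pass 2-fold, and in *ob/ob* mice the *Ddit4* interval includes 0.

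Counted over the 9 genes, obesity in GRf/f muscle had 0 genes at least 2-fold higher, where 3.40% of all genes tested were, and 1 lower, *Ddit4*, where 6.98% were. At 1.5-fold, *Sesn3* and *Tsc1* were higher (background 7.99%), and *Ddit4* and *Deptor* were lower (16.5%). *Deptor* was short of 1.5-fold with TMM (−0.58) and DESeq2 (−0.57) scaling of the libraries. In GRmKO muscle no gene of the 9 reached 2-fold in obesity, against 3.41% of all genes higher and 10.8% lower. At 1.5-fold, *Sesn3* was higher (7.81%), and *Ddit4* and *Tsc1* were lower (23.9%). *Ddit4* was short of 1.5-fold under all 4 other scalings tried (−0.42 to −0.56), and *Tsc2* passed it, higher, under 3 of them (0.62 to 0.69). In lean mice GRmKO muscle had *Tsc1* at least 2-fold higher (4.13%) and *Ddit4* lower (3.56%), and at 1.5-fold *Ddit4l* joined *Tsc1* (9.45%) and *Ddit4* stayed alone below (7.76%). In *ob/ob* mice no gene of the 9 reached 2-fold between genotypes, where 4.05% of all genes were higher and 4.99% lower, and *Ddit4l* and *Deptor* were higher at 1.5-fold (8.60%) with none lower (12.2%). With 9 genes, a count of 1 or 2 is too few to set the group apart from these shares. The median over the 9 genes was 0.26 for obesity in GRf/f, −0.26 for obesity in GRmKO, 0.29 for genotype in lean and −0.12 for genotype in *ob/ob* mice, beside −0.11, −0.21, 0.05 and −0.04 for all genes.

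Divided by the length of the listed transcript, *Ddit4l* was the most abundant of the 9 in every library, at 77.5, 136, 90.3 and 175 CPM per kb in lean GRf/f, lean GRmKO, *ob/ob* GRf/f and *ob/ob* GRmKO muscle. *Ddit4* was next in lean GRf/f at 53.02 CPM per kb, above *Eif4ebp1* at 41.7. In the other 3 libraries *Eif4ebp1*, at 27.4 to 33.3, was above *Ddit4*, at 21.1, 14.8 and 13.6. *Deptor*, *Sesn1* and *Tsc2* followed at 6.96 to 13.7 CPM per kb, then *Sesn3* and *Tsc1* at 1.65 to 4.60, and *Sesn2* was lowest in every library at 1.501 to 1.866. The order of *Deptor*, *Sesn1* and *Tsc2* depends on the transcript length assumed, since with the longest coding transcript the mean of *Sesn1* was 7.05 in place of 10.3 and that of *Tsc2* 8.65 in place of 9.68.

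Ratios of a pair of genes within a library do not depend on how libraries are scaled. The pairs were chosen after the values were seen, and the ratios describe the same counts in another way. Per transcript length, *Ddit4* stood at 0.684 of *Ddit4l* (0.648 to 0.722) in lean GRf/f, 0.156 (0.144 to 0.168) in lean GRmKO, 0.164 (0.150 to 0.179) in *ob/ob* GRf/f and 0.0779 (0.0711 to 0.0852) in *ob/ob* GRmKO. The 2 middle libraries overlapped. *Ddit4* was lower than in lean GRf/f in both, and *Ddit4l* was higher by 0.81 in lean GRmKO and by 0.22 in *ob/ob* GRf/f. Per length, *Sesn3* was at 0.219, 0.236, 0.315 and 0.475 of *Sesn1* in the same order of libraries, below it in each and highest in *ob/ob* GRmKO. *Tsc1* per length was at 0.212, 0.400, 0.240 and 0.162 of *Tsc2*, highest in lean GRmKO. *Deptor* per length was 2.20, 2.98, 1.10 and 1.69 times *Mtor*, the kinase it binds, lower in both obese libraries than in either lean one. *Eif4ebp1* per length was 2.57, 2.23, 2.59 and 2.35 times *Eif4e*, the factor its product holds, with intervals that overlapped in every case. Against *Eif4ebp2*, the paralogous repressor, the ratio per length was 0.965, 0.843, 0.625 and 0.509 in the same order, and *Eif4ebp2* itself was higher in obesity by 0.30 in GRf/f and 0.46 in GRmKO muscle.

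**Figure D3:**
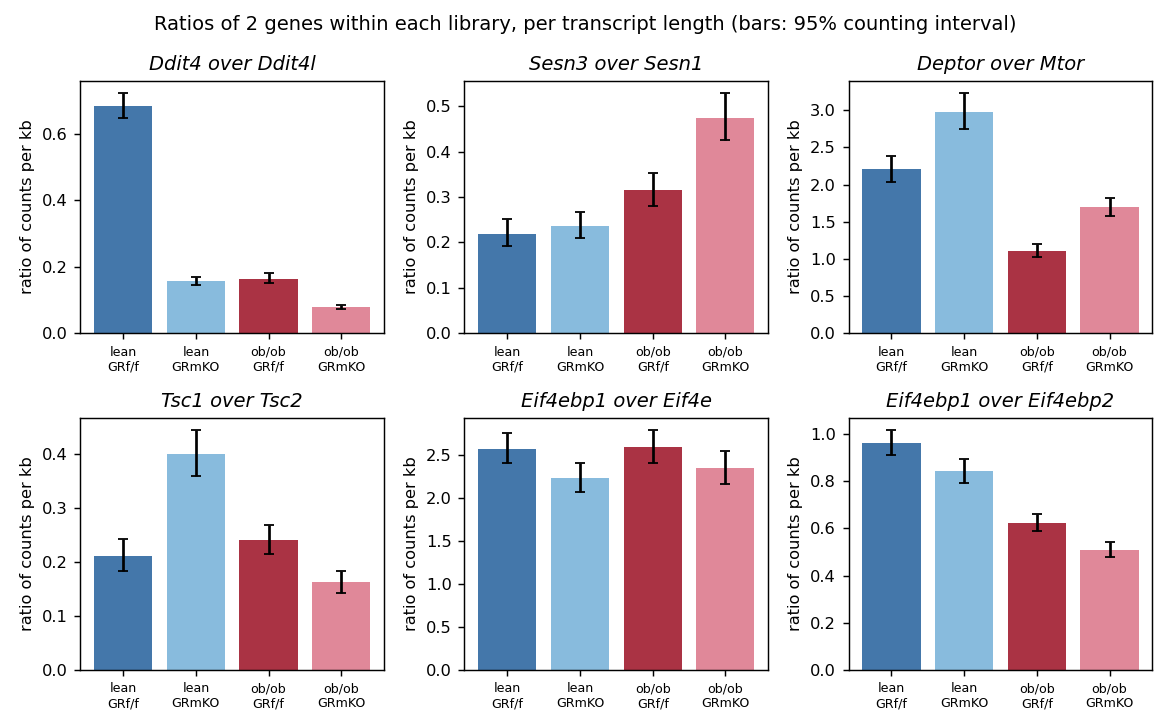
Ratios of counts per kb of transcript (y axis, from 0) for 6 pairs of genes in the 4 libraries (x axis), with 95% counting intervals. *Ddit4* over *Ddit4l* is 0.684 in lean GRf/f and at most 0.164 elsewhere, and the ratio of *Eif4ebp1* to *Eif4e* moves least.

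The rest of the mTORC1 pathway was read in the same way. Of 64 listed genes of the complex, its lysosomal anchors, its nutrient and growth factor inputs and its outputs, 62 were in the tables and 61 were above 0 in all libraries. At 2-fold, 0 were higher and 1 lower for obesity in GRf/f, 0 and 2 for obesity in GRmKO, 0 and 0 for genotype in lean, and 1 and 1 for genotype in *ob/ob* mice. Over all genes the shares higher and lower were 3.40% and 6.98%, 3.41% and 10.8%, 4.13% and 3.56%, and 4.05% and 4.99%. At 1.5-fold the counts were 2 and 4, 4 and 8, 3 and 1, and 2 and 4, where all genes had 7.99% and 16.5%, 7.81% and 23.9%, 9.45% and 7.76%, and 8.60% and 12.2%. The medians of the list were −0.05, −0.12, 0.02 and 0.02, beside −0.11, −0.21, 0.05 and −0.04 for all genes. *Mlst8*, a core subunit of both mTOR complexes, was at 8.39, 13.1, 8.43 and 5.21 CPM and differed by −1.33 (−1.68 to −1.01) in obesity among GRmKO mice, lowest in *ob/ob* GRmKO. *Mapkap1*, a subunit of the other mTOR complex, mTORC2, was at 24.7, 19.6, 25.9 and 12.7 CPM and was −1.03 (−1.25 to −0.82) between genotypes in *ob/ob* mice. Both have 7 coding transcripts. *Prkag3*, the AMPK gamma subunit of fast muscle fibres, was at 155, 203, 129 and 267 CPM, higher by 1.04 (0.98 to 1.11) in *ob/ob* GRmKO than in *ob/ob* GRf/f muscle. *Rhebl1*, a relative of *Rheb*, gave the other calls at 2-fold and was low, at 1.66, 1.61, 0.357 and 0.666 CPM. *Rptor*, which brings substrates to mTORC1, was at 32.1, 22.7, 47.1 and 42.8 CPM, higher in obesity by 0.55 in GRf/f and 0.92 in GRmKO muscle.

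*Ddit4* belongs to several known transcriptional programmes, and the other genes of each were read beside it. The lists below were drawn up with earlier results of these data known. Of 18 known GR targets, 6 were at least 2-fold lower in GRmKO among lean mice and 2 among *ob/ob* mice, with 0 and 1 higher, where 3.56% and 4.99% of all genes were lower and 4.13% and 4.05% higher. For obesity 4 were lower in GRf/f and 2 in GRmKO muscle, with none higher, against 6.98% and 10.8% of all genes lower. Their medians were −0.73 and −0.26 for obesity in GRf/f and GRmKO, where all genes had −0.11 and −0.21, and −0.70 and −0.26 for genotype in lean and *ob/ob* mice, where all genes had 0.05 and −0.04. These targets did not share a single order of levels. *Per1*, a clock gene that GR induces, was at 106, 41.2, 65.9 and 41.2 CPM in lean GRf/f, lean GRmKO, *ob/ob* GRf/f and *ob/ob* GRmKO muscle. *Tsc22d3*, the leucine zipper gene GILZ, was at 441, 226, 234 and 210, high in lean GRf/f only, as *Ddit4* was. *Arrdc2*, an arrestin-domain gene of muscle, was at 142, 10.03, 69.3 and 4.81, lower in GRmKO by 14.2-fold in lean and 14.4-fold in *ob/ob* mice and lower in both obese libraries. *Fkbp5*, in contrast, differed by 0.25 and 0.19 in obesity in GRf/f and GRmKO and by −1.96 and −2.02 between genotypes in lean and *ob/ob* mice. *Cebpb*, a transcription factor, was at 139, 65.2, 69.9 and 44.2 CPM, and *Glul*, which makes glutamine, was at 653, 299, 325 and 176, both highest in lean GRf/f and lowest in *ob/ob* GRmKO. *Zbtb16*, a transcription factor, was at 67.9, 29.6, 61.1 and 39.7, lower in GRmKO, and *Sult1a1*, a sulfotransferase, was at 46.6, 47.1, 23.6 and 21.3, lower in obesity. *Pdk4*, a brake on glucose oxidation, was at 402, 349, 173 and 372 and was 1.10 (1.05 to 1.16) higher in *ob/ob* GRmKO than in *ob/ob* GRf/f muscle.

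Of 15 ATF4 targets of the integrated stress response, 1 was at least 2-fold higher and 1 lower for obesity in GRf/f, 0 and 1 for obesity in GRmKO, 1 and 1 for genotype in lean, and 0 and 1 for genotype in *ob/ob* mice, with medians of −0.01, −0.39, −0.02 and −0.19. In these comparisons 3.40%, 3.41%, 4.13% and 4.05% of all genes were higher and 6.98%, 10.8%, 3.56% and 4.99% lower, and the medians of all genes were −0.11, −0.21, 0.05 and −0.04, which also stand beside the next 3 lists. *Chac1*, which degrades glutathione, was at 103, 42.6, 19.4 and 15.6 CPM, the same order of libraries as *Ddit4*, with −2.41 (−2.57 to −2.26) and −1.45 (−1.64 to −1.27) for obesity in GRf/f and GRmKO muscle. *Trib3*, a pseudokinase of the same programme, was low at 1.78, 2.16, 4.15 and 2.19 CPM and was 1.22 (0.65 to 1.82) higher in obesity in GRf/f muscle. *Slc7a11*, called between genotypes in *ob/ob* mice, was at 0.390 CPM in GRf/f and 0.143 in GRmKO, and *Fgf21*, called in lean mice, at 0.0481 and 0.100, both with intervals that spanned 0. Of 10 p53 genes, 9 were above 0 everywhere, and 1 call at 2-fold was made in all comparisons, *Cdkn1a* at 1.09 (0.95 to 1.24) for obesity in GRmKO muscle. *Trp53* itself was listed at 0 in lean GRf/f and *ob/ob* GRmKO and at 26.3 and 16.5 CPM in the other 2 libraries, and has 4 coding transcripts. Of 11 FOXO targets, 0 passed 2-fold in any comparison, and the medians were −0.45, −0.23, −0.29 and −0.17. Of 10 hypoxia targets, *Car9* was at least 2-fold lower between genotypes in lean and *ob/ob* mice, at 1.495 and 1.812 CPM in GRf/f against 0.654 and 0.334 in GRmKO, 0 passed in obesity, and the medians were −0.00, −0.34, 0.12 and −0.16.

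Of 15 clock genes listed, 14 were in the tables. For obesity in GRf/f muscle 3 were at least 2-fold lower and 0 higher, in GRmKO 1 and 0, for genotype in lean mice 3 lower and 1 higher, and in *ob/ob* mice 0 and 0. Of all genes 6.98%, 10.8%, 3.56% and 4.99% were lower and 3.40%, 3.41%, 4.13% and 4.05% higher, and the medians of the list, −0.28, −0.24, 0.01 and −0.05, stood beside −0.11, −0.21, 0.05 and −0.04. *Per2*, a repressor of the clock, was at 32.4, 15.5, 15.7 and 14.2 CPM, again high in lean GRf/f only. It was −1.04 (−1.24 to −0.85) for obesity in GRf/f and −1.07 (−1.27 to −0.87) for genotype in lean mice, and its intervals included 0 in the other comparisons. *Dbp*, a clock output gene, was at 175, 155, 67.9 and 72.3, lower in both obese libraries. *Npas2*, an activator of the clock, was at 1.97, 4.36, 2.86 and 3.71 and was 1.15 (0.59 to 1.72) for genotype in lean mice. The hour at which muscle was taken was not compared here, and its part in these levels was not tested.

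The genes whose profile over the 4 libraries was nearest to that of *Ddit4* were sought among 10486 genes, those with 50 counts or more in all 4 libraries, by the root mean square distance of log2 CPM after centring each gene. Of the nearest 5, 3 are described here: *Cebpd*, at a distance of 0.156, *Slc25a30*, at 0.219, and *Ciart*, at 0.224. *Cebpd* encodes a transcription factor, *Slc25a30* a mitochondrial carrier and *Ciart* a repressor of the clock. Relative to lean GRf/f, *Cebpd* stood at −0.91, −1.55 and −1.81 on the log2 scale in lean GRmKO, *ob/ob* GRf/f and *ob/ob* GRmKO muscle, where *Ddit4* stood at −1.33, −1.84 and −1.96. *Ciart* stood at −1.93, −2.00 and −2.32. Its levels there were 3.76 CPM (3.01 to 4.72), 3.57 (2.85 to 4.48) and 2.86 (2.23 to 3.69), with intervals that overlapped. *Ciart* has 6 coding transcripts. *Cebpd* is also on the list of GR targets, and 562 of its 3746 exon bases are shared with *Spidr* on the other strand. With 4 libraries, the distance describes these values only. Of the other 8 genes followed, *Eif4ebp1* was nearest to *Ddit4*, at 0.589 and place 1110. *Sesn3* was farthest, at 1.201 and place 10323, close to *Ddit4l* at 1.14 and place 10250.

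**Figure D4:**
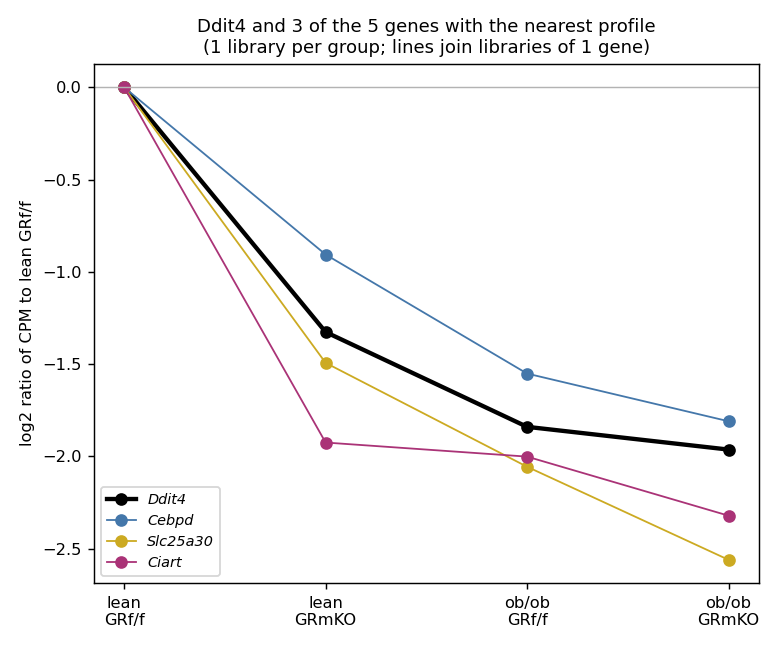
Log2 ratio of CPM to lean GRf/f (y axis) in the 4 libraries (x axis) for *Ddit4* and 3 of the 5 genes nearest to it, with lines joining the values of 1 gene. Every gene drawn is highest in lean GRf/f and lowest in *ob/ob* GRmKO, and *Ddit4* is at −1.96 there. For *Ddit4* and *Ciart* the counting intervals of the *ob/ob* GRf/f and *ob/ob* GRmKO levels overlap.

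Genes that mark fibre types and other cells differed between the groups as well. In bulk muscle, fewer cells of a type and less RNA per cell cannot be told apart. Slow fibre genes summed to 519 CPM in lean GRf/f, 692 in lean GRmKO, 1152 in *ob/ob* GRf/f and 1646 in *ob/ob* GRmKO, the same order of libraries as *Sesn3* and *Tsc2*, and 6 and 7 of 9 were at least 2-fold higher in obesity in GRf/f and GRmKO, where 3.40% and 3.41% of all genes were. Fast fibre genes summed to 92083 to 115855 CPM, with 0 of 10 at 2-fold in any comparison. Erythroid genes summed to 2233 and 2130 CPM in the lean and 973 and 874 in the obese libraries, with 8 of 8 lower and 7 of 8 at least 2-fold lower in each obesity comparison, where 6.98% and 10.8% of all genes were. Macrophage genes summed to 391, 516, 259 and 195 CPM, and endothelial genes to 592, 679, 463 and 412. For obesity in GRf/f and GRmKO, 1 and 7 of 8 macrophage genes were at least 2-fold lower, where 6.98% and 10.8% of all genes were. Of 8 endothelial genes, 1 and 8 were at least 1.5-fold lower, where 16.5% and 23.9% of all genes were. Fibroblast genes summed to 5281, 5698, 10476 and 5666. *Col1a1* was at 1279, 1264, 4108 and 2277 CPM, whereas *Dcn* was at 1247, 1343, 882 and 634. For obesity in GRf/f and GRmKO, 3 and 1 of 7 were at least 2-fold higher and 0 and 2 lower. Of all genes 3.40% and 3.41% were higher and 6.98% and 10.8% lower. The medians were 0.50 and −0.64, beside −0.11 and −0.21. Between genotypes in *ob/ob* mice 5 of 7 were at least 1.5-fold lower, where 12.2% of all genes were. Adipocyte genes summed to 4485, 4977, 3901 and 6055. *Car3*, which muscle also makes, held most of the adipocyte sum, at 3490, 4333, 3329 and 5700 CPM, and the other 7 adipocyte genes were lower in GRmKO in both backgrounds, such as *Adipoq* at 81.4, 48.3, 80.4 and 44.4. The median genotype difference over all 8 was −0.80 among lean and −0.71 among obese mice, where all genes had 0.05 and −0.04. At 1.5-fold, 6 and 5 of the 8 were lower and 0 and 1 higher. Of all genes 7.76% and 12.2% were lower and 9.45% and 8.60% higher. The part of these cells and fibres in the levels of *Ddit4*, *Sesn3*, *Tsc2* and the rest of the 9 genes was not tested.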

How the data were processed

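Bulk RNA-seq of gastrocnemius was analysed in 4 libraries, 1 per group, of pooled RNA from 3 mice each. Per the study's methods, 100-bp paired-end reads were quantified by the authors with Salmon 1.2.1 against GENCODE M20 protein-coding transcripts and imported with tximport in R 3.5.0, with counts scaled from TPM by transcript length and library size. The deposited values are these estimated counts, not whole and not normalized between libraries. The authors kept, for a gene name listed more than once, the entry with the largest total.

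CPM was computed here over the whole library total in Python 3.11.15 (pandas 2.3.3, SciPy 1.17.1). It was given 95% Wilson intervals, ratios were given exact conditional intervals, and differences between obesity values were given normal approximations. All of these cover counting error only. With no replicates no test was run, and genes were called by fold alone among 14206 genes above 0 in every library. TMM factors (edgeR 4.0.16), DESeq2 1.42.0 size factors, upper quartile scaling, removal of the 50 most abundant genes, other filters and a 1.5-fold limit were tried. The simulated replicates of the study's own method were not used. The computation of the fold rule and its interval was checked on counts simulated around known folds with counting error alone. Those counts held no spread between mice, so the check says nothing about calls between groups of mice. Coordinates and transcript numbers are from GENCODE M21 and promoters from RefSeq, both GRCm38.

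The genes and lists were chosen with earlier results of these data known. Beside the 9 genes, named genes were those of the pathway and regulator lists past 2-fold that reached 50 counts in either library compared, the 5 genes nearest to *Ddit4* (of which 2 are not reported here), and *Nr3c1* and *Fkbp5* as checks. *Tsc22d3*, *Rhebl1*, *Slc7a11*, *Fgf21*, *Car9*, *Car3*, *Adipoq*, *Rptor*, *Mtor*, *Eif4e* and *Eif4ebp2* were named after their values were seen.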

Additional observations from a re-analysis of the deposited data

Results flagged for a closer look

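*Tsc1* and *Sesn1* had opposite signs of the same contrast in 2 settings, with 1 library a side, so that the difference was not tested. The log2 difference of *Tsc1* in obesity was 0.62 in GRf/f and −0.83 in GRmKO muscle, and between genotypes it was 1.05 among lean mice and −0.40 among obese mice. The obesity difference of *Sesn1* was 0.26 in GRf/f and −0.26 in GRmKO muscle, and the latter was −0.06 with TMM and −0.05 with DESeq2 factors.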

How the results depend on the processing

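Of 144 values (9 genes in 4 comparisons under 4 other scalings), 140 kept their sign. The 4 that did not were *Sesn2* for obesity in GRmKO muscle, −0.02 by CPM, at 0.19 with TMM factors, 0.20 with DESeq2 size factors, 0.12 with upper quartile scaling and 0.06 without the 50 most abundant genes. In 27 cases the value left the counting interval. *Ddit4* for obesity in GRmKO muscle was −0.43 with TMM and −0.42 with DESeq2 factors in place of −0.64, and *Tsc1* for genotype in lean mice went from 1.05 to as low as 0.997, just under 2-fold. The numbers of genes at least 2-fold higher and lower were 483 and 991 for obesity in GRf/f, 484 and 1537 for obesity in GRmKO, 586 and 506 for genotype in lean, and 575 and 709 for genotype in *ob/ob* mice. With at least 10 counts in every library they were 253 and 449, 220 and 985, 228 and 169, and 230 and 322. With 0.5 added and genes above 0 in any library they were 1307 and 3077, 1520 and 2746, 1578 and 2449, and 1698 and 1606. At 1.5-fold they were 1135 and 2347, 1110 and 3402, 1343 and 1102, and 1222 and 1737. For obesity in GRmKO muscle TMM gave 741 and 996 and DESeq2 factors 751 and 984. No paired analysis was possible because each group has 1 library, and for the same reason no library could be left out. Precision between mice cannot be given from pooled libraries.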
